A study of Mus musculus with 6 samples.

Results

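The Hox cluster genes were examined in 6 RNA-seq libraries of sorted mouse DN1 (double-negative 1) thymocytes. The 39 genes were taken by symbol, as every gene named Hoxa, Hoxb, Hoxc or Hoxd with a paralogue number, and all 39 were found in each library among 24318 gene symbols. The Hoxa cluster has 11 of them, Hoxb 10, Hoxc 9 and Hoxd 9.

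Hox genes encode homeodomain transcription factors that give cells their position along the body axis. They lie in clusters in which gene order follows the order of expression along the body, and the paralogue number gives the place in that order, from anterior (low) to posterior (high). In blood, Hoxa cluster genes such as Hoxa9 and Hoxa7 are known for high expression in stem cells and early progenitors and for a decline as cells differentiate. Their proteins bind DNA together with Meis and Pbx cofactors. Trithorax-type complexes around MLL and menin are known to keep Hox genes active, and Polycomb complexes to keep them silent.

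The study compared WT cells with cells carrying a deficiency labelled Tle134, read here as Tle1, Tle3 and Tle4, which encode Groucho-type corepressors. The labels give 3 libraries to each genotype, mice aged 5 to 8 weeks, and a gate on cells with CD44 that lack lineage markers, TCRb, CD25 and CD8a. The sources used here give neither the driver of the deletion nor the number of animals behind each library, so p-values here measure only how far these libraries spread, which may be technical. The labels name no agent and no further allele for either group. Expression was deposited as FPKM, fragments counted per kilobase of transcript and per mapped total of a library, with a lower and an upper bound. FPKM is per length, so levels of different genes can be set side by side within a library. For loci assembled from the reads of a library this held less well, as the values of Hoxc9 below show.

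Tle1, Tle3 and Tle4 were not lower in the libraries labelled Tle134-deficient. Their log2 differences from WT were all above 0, at 2.09, 1.33 and 0.58 (limma adjusted p = 0.0954, 0.234 and 0.726). Tle1 stood at 1.37, 1.19 and 3.61 FPKM in WT replicates 1 to 3 and at 11.5, 11.3 and 11.1 FPKM in the others (limma adjusted p = 0.0954). The group is therefore called by its label throughout. Of the gate's genes, Cd44 measured 27.5 to 74.3 FPKM and Ptprc 58.2 to 139 FPKM over the 6 libraries, while Il2ra, which encodes CD25, measured 1.69 to 7.36 FPKM and Cd8a at most 2.48 FPKM. The depth implied by the width of the deposited intervals was 1.42e+06 to 4.34e+06 fragments in loci with a symbol, lowest in the libraries numbered 1. FPKM values summed over those loci ran from 268034 in WT replicate 2 to 2582390 in WT replicate 3, so the scale of FPKM differed between libraries. Genes of B cells summed to 75.3 to 129 FPKM in WT. They summed to 600 to 964 FPKM in the labelled-deficient libraries, where 8 of 11 were called higher (limma adjusted p under 0.05). Whether B cells passed the gate was not tested. Of all 11063 genes tested, 83 were called (0.75%), 71 of them higher. In bulk samples, fewer cells of a type and less RNA per cell cannot be told apart.

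Hox expression in these cells was low, and in 4 of the 6 libraries most of it lay in the Hoxa cluster. Hoxa9 was the only Hox gene at 1 FPKM or more in all 6 libraries. Hoxa7 reached 1 FPKM in 4 libraries and Hoxa6 in 3. Hoxa5, Hoxb2, Hoxb4 and Hoxd10 reached it in 2 libraries each, and 10 genes in 1 library each: Hoxa2, Hoxa3, Hoxa4, Hoxa10, Hoxb1, Hoxb3, Hoxb7, Hoxc9, Hoxc12 and Hoxd8. A further 17 genes were above 0 in some library and never at 1 FPKM, and Hoxb13, Hoxc4, Hoxc10, Hoxc11 and Hoxd13 were listed at 0 in all 6. 

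By library, 11, 7 and 3 Hox genes stood at 1 FPKM or more in WT replicates 1 to 3, and 2, 3 and 5 in labelled-deficient replicates 1 to 3. The ranges of the groups overlapped. Of all genes, 51%, 47.2% and 46.5% stood at 1 FPKM or more in the WT libraries and 45.7%, 46.3% and 45.7% in the others. WT replicate 1 had 3 such genes in Hoxa, 5 in Hoxb, 2 in Hoxc and 1 in Hoxd, the broadest spread over clusters of the 6 libraries. In WT replicate 2 all 7 were Hoxa genes, a run from Hoxa3 to Hoxa10 with every member between them. WT replicate 3 had Hoxa7, Hoxa9 and Hoxd8. Labelled-deficient replicate 1 had Hoxa9 and Hoxd10, replicate 2 had Hoxa6, Hoxa7 and Hoxa9, and replicate 3 had Hoxa5, Hoxa7, Hoxa9, Hoxb2 and Hoxb4. A cut at 5 FPKM left Hoxa6, Hoxa7, Hoxa9 and Hoxc9.

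**Figure D1:**
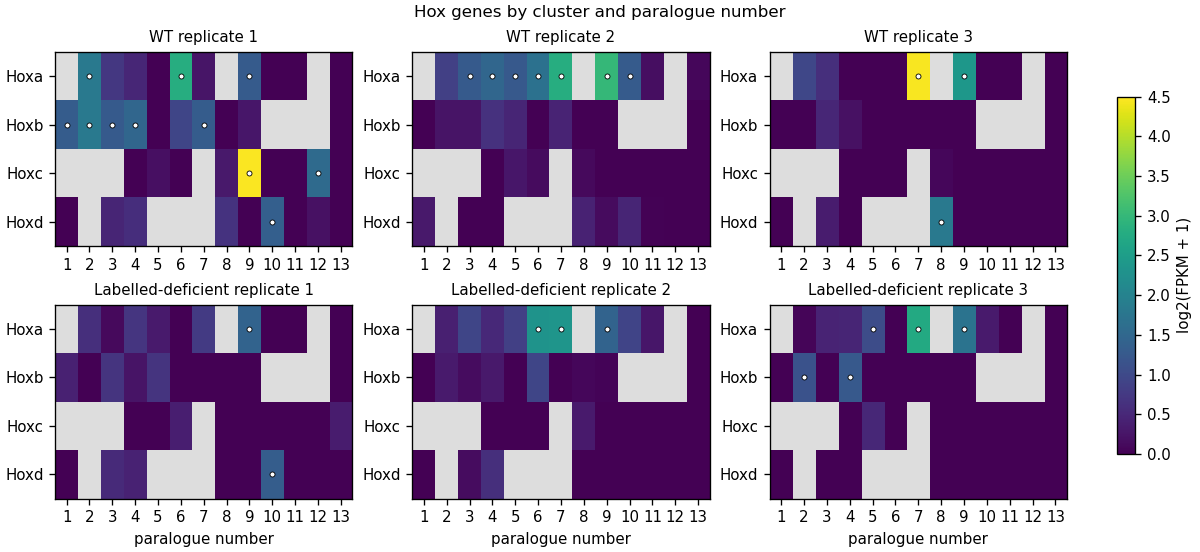
Heat maps of 38 Hox genes in the 6 libraries, with clusters in rows, paralogue number in columns and colour for log2(FPKM + 1). Grey marks positions with no gene shown, and a white dot a gene at 1 FPKM or more. Hoxa9 carries a dot in all 6 panels, and WT replicate 1 has dots in all 4 clusters.

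Most of these values rest on few fragments. The 39 genes in 6 libraries gave 100 values above 0, with a median of 7.0 implied fragments, and 65 of the 100 rested on under 10. Implied fragments are estimates and not read counts, and only 49 of the 100 lay within 0.05 of a whole number. Only Hoxa9, Hoxa7 and Hoxb4 had over 100 implied fragments in all libraries together (448, 516 and 105, in that order). A Hox gene listed at 0 may therefore be one that was not detectable at this depth. An exact 0 can also be a failed estimate. Some zeros belonged to loci assembled from reads of the same library, so those do not mean that no reads were found. Among them were Hoxa5 in WT replicate 1 and Hoxa6 in WT replicate 3 and labelled-deficient replicate 3. Hoxa10 in labelled-deficient replicate 1 and Hoxc10 in labelled-deficient replicate 2 were others.

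The promoters of Hoxa7 and Hoxa9 are shown because these genes held the most fragments and the results turn on them. The sequences run 5′ to 3′ on the strand of the gene, from 250 bases before to 50 bases after the start, and come from RefSeq on build GRCm38.p6, while all coordinates of expressed loci below are mm9. Capitals would mark matches to 4 motifs, searched on both strands: CTTTGAT for Tcf/Lef factors, TGTGGT for Runx factors, TGACAG for Meis factors and TGATTNAT for a Pbx-Hox pair. Neither promoter held any of them, which says only that these letters are not in these windows.
Hoxa7, chr6:52218524-52218823, minus strand: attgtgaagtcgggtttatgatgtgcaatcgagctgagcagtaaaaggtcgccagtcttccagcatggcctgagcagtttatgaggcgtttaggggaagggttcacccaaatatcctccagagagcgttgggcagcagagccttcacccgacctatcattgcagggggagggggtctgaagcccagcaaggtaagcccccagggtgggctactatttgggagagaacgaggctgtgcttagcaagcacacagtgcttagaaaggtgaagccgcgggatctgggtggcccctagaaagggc
Hoxa9, chr6:52227321-52227620, minus strand: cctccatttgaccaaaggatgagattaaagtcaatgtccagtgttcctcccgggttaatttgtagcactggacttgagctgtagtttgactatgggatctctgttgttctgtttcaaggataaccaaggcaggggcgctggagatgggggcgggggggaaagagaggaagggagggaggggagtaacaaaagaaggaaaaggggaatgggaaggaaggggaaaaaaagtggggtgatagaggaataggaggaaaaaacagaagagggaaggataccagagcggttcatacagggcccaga
The RefSeq table held 24 promoters of 22 of the 39 Hox genes. Their median number of CpG dinucleotides was 14.5 (4 to 45), beside a median of 7 over all 32851 promoters, and their median GC content was 57.7% beside 52.7%. The Hoxa9 promoter shown has 4 CpG and the Hoxa7 promoter 9.

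Hoxa9, a gene known to act in stem cells and early lymphoid progenitors, was measured at 1.45, 6.95 and 4.20 FPKM in WT replicates 1 to 3. In labelled-deficient replicates 1 to 3 it was measured at 1.69, 1.71 and 2.28 FPKM. In FPKM, WT replicates 2 and 3 were the highest of the 6, WT replicate 1 the lowest, and the groups overlapped. The 3 labelled-deficient libraries lay close together (1.89 ± 0.337 FPKM, SD, n = 3) and the WT libraries did not (4.20 ± 2.75 FPKM, SD, n = 3). The deposited interval in WT replicate 2 (5.84 to 8.05 FPKM) lay above the upper bound of each of the other libraries, the highest of which was 5.09 FPKM in WT replicate 3. The log2 difference of the labelled-deficient libraries from WT was -0.70 ± 0.55 (SE, limma adjusted p = 0.772), which was within the spread between libraries. Per 1000000 implied fragments in loci with a symbol, Hoxa9 held 16.3, 49.3 and 27.9 in WT and 15.0, 21.9 and 19.3 in the labelled-deficient libraries. With each library rescaled to an equal sum over all genes, Hoxa9 stood at 1.36, 25.9 and 1.63 in WT. The labelled-deficient libraries then stood at 1.07, 3.06 and 2.94. On that scale WT replicate 3 lay below labelled-deficient replicates 2 and 3, so the ranking depended on the scale.

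Hoxa7, its neighbour and a partner in progenitor expression programmes, was measured at 0.197, 6.02 and 21.0 FPKM in WT replicates 1 to 3. It was measured at 0.705, 4.10 and 5.61 FPKM in labelled-deficient replicates 1 to 3. In FPKM, replicate 1 of each group was low and the other 4 libraries were high, with WT replicate 3 far above the rest. Per 1000000 implied fragments in loci with a symbol, Hoxa7 held 1.41, 57.8 and 35.6 in WT replicates 1 to 3. On that scale labelled-deficient replicates 1 to 3 held 3.98, 32.1 and 24.4, and WT replicate 2 was the highest library. The deposited Hoxa7 locus was not the same in each library. On mm9 chromosome 6 it spanned 52165623 to 52168572, the annotated gene, in WT replicate 1 and labelled-deficient replicates 1 and 2. It reached 3083 bases further upstream in WT replicate 2, 2890 bases in WT replicate 3 and 3138 bases in the labelled-deficient replicate 3. In WT replicate 2 the locus was joined with that of Mira, a noncoding transcript next to Hoxa7, so that 6.02 FPKM is the value of both. The sources used here do not state whether counting used strand, so reads of Hoxa7 and Mira cannot be told apart with certainty.

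**Figure D2:**
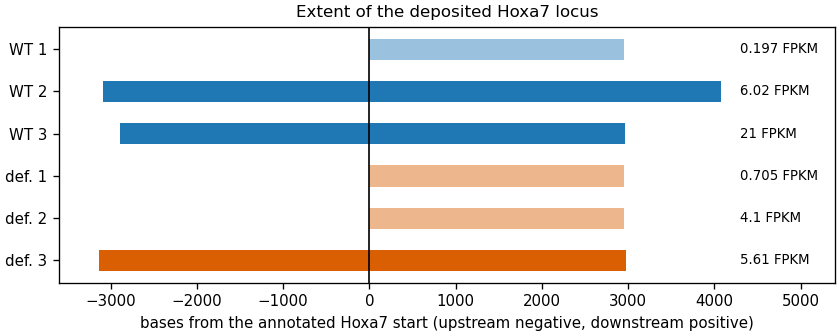
Extent of the deposited Hoxa7 locus in each library, in bases from the annotated start (upstream negative), with its FPKM at the right; def. stands for labelled Tle134-deficient and darker bars for loci assembled from the reads. The locus starts 2890 to 3138 bases upstream in WT replicates 2 and 3 and labelled-deficient replicate 3, and ends at the annotated position or near it in all but WT replicate 2.

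For the test, Hoxa7 and Mira were joined in every library as Hoxa7/Mira and their FPKM added. The joined values were 2.87, 6.02 and 21.0 FPKM in the WT libraries, against 3.55, 5.68 and 7.70 FPKM in those labelled deficient. Their log2 difference was -0.39 ± 0.64 (SE, limma adjusted p = 0.935) and turned to 0.30 without WT replicate 3. The sign of this difference thus rested on 1 library.

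Hoxa6 was measured at 5.95 FPKM in WT replicate 1, 2.22 FPKM in WT replicate 2 and 3.94 FPKM in labelled-deficient replicate 2, and was listed at 0 in the other 3 libraries. These values came from 12.4, 11.5 and 8.46 implied fragments, each at a locus assembled from the reads. The log2 difference was -0.73 ± 0.83 (SE, limma adjusted p = 0.873). Hoxa5, Hoxa7, Hoxa9 and Hoxa10 are the Hoxa genes best known from leukaemia with MLL fusions. Of these, Hoxa5 was the one with a higher mean in the labelled-deficient libraries, at 0, 1.38 and 0 FPKM in the WT libraries, against 0.246, 0.799 and 1.07 FPKM in those labelled deficient. Hoxa10 was at 0, 1.44 and 0 FPKM in the WT libraries, against 0, 0.903 and 0.255 FPKM in those labelled deficient. For both, WT replicate 2 was the highest library and the groups overlapped.

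**Figure D3:**
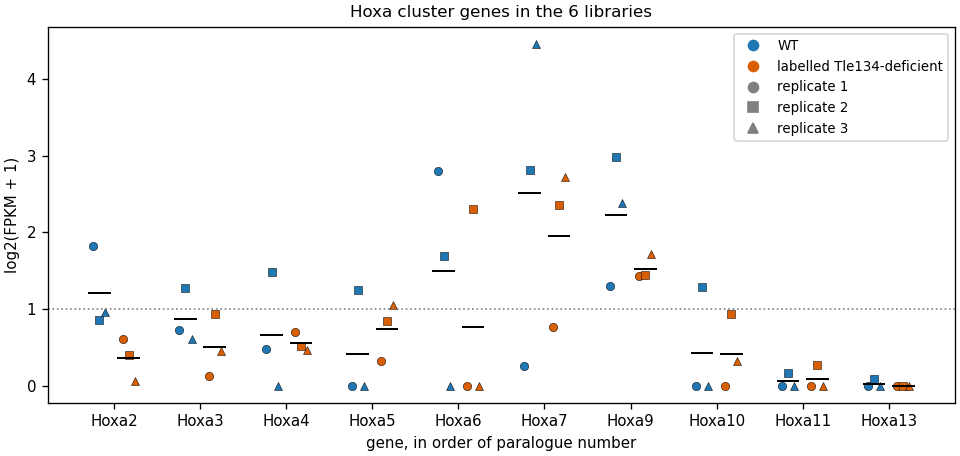
Log2(FPKM + 1) of 10 Hoxa genes in each library, by paralogue number; colours give the group, shapes the replicate number, black lines the group mean and the dotted line 1 FPKM. Hoxa7 and Hoxa9 are the highest genes, and WT replicates 1 and 3 are at 0 for Hoxa5 and Hoxa10 where WT replicate 2 is above the line.

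At the anterior end of the cluster, Hoxa3, which is required for the thymus to form in the embryo, was above 0 in all 6 libraries. It was measured at 0.661, 1.42 and 0.529 FPKM in the WT libraries, against 0.0875, 0.911 and 0.365 FPKM in those labelled deficient. The annotated Hoxa3 locus spans Hoxa4, Hoxa5 and Hoxa6, so its reads are uncertain, as are those of Hoxd3 and Hoxd4, which overlap in the same way. Hoxa4 was measured at 0.392, 1.80 and 0 FPKM in the WT libraries, against 0.623, 0.426 and 0.379 FPKM in those labelled deficient. At the posterior end, Hoxa11 was at most 0.202 FPKM, and Hoxa13, a gene of limb and genital development, was above 0 only in WT replicate 2, at 0.0584 FPKM and 1.0 implied fragment.

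Hoxa2 and Hoxd8 were the 2 Hox genes of 39 whose groups did not overlap, and both were higher in WT. Over all 18943 genes above 0 in any library, 11.2% did not overlap in either direction and 5.56% had WT higher; the Hox count of 2 among the 34 genes above 0 is a share near that background. Hoxa2, which patterns the hindbrain and the second pharyngeal arch, was measured at 2.52, 0.816 and 0.949 FPKM in WT. It was measured at 0.524, 0.314 and 0.0455 FPKM in those labelled deficient, the last from 1.0 implied fragment. Hoxd8, a trunk gene, was measured at 0.586, 0.348 and 2.53 FPKM in WT and was listed at 0 in all 3 labelled-deficient libraries. Both genes missed the filter of 1 FPKM in at least 3 libraries. With the filter lowered to 0.1 FPKM, the log2 differences were -0.86 ± 0.41 for Hoxa2 (SE, limma adjusted p = 0.577) and -0.97 ± 0.39 for Hoxd8 (SE, limma adjusted p = 0.473), and 0.454% of all genes were called in that fit. When each library was rescaled to an equal sum over all genes, 1 Hox gene kept groups that did not overlap, which can only be Hoxd8, since zeros do not move.
The promoters of these 2 genes are shown because they were the only Hox genes with separate groups; capitals mark motif matches.
Hoxa2, chr6:52164782-52165081, minus strand: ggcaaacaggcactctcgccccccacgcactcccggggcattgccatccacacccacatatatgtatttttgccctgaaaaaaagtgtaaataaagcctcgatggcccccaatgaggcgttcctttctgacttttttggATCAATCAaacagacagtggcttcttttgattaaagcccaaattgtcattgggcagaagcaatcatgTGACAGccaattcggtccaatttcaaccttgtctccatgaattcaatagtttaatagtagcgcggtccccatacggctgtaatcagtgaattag
Hoxd8, chr2:74704365-74704664, plus strand: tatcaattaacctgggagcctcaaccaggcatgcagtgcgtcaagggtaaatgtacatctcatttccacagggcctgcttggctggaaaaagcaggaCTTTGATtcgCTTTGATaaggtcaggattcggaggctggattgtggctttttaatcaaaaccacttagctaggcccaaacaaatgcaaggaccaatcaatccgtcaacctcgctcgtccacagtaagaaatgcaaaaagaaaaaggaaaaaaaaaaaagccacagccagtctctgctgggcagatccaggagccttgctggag
The Hoxa2 promoter held a Pbx-Hox match that begins 111 bases before the start and a Meis match that begins 44 bases before it. The Hoxd8 promoter held 2 Tcf/Lef matches, at 153 and 143 bases before the start, and was the 1 Hox promoter of 24 with that motif. Over all promoters of this length, 3.73% held the Tcf/Lef motif, 16.8% the Runx motif, 19.2% the Meis motif and 3.22% the Pbx-Hox motif. Among the Hox promoters, 1 held the Runx motif, 2 the Meis motif and 2 the Pbx-Hox motif. These matches are descriptions of the sequence and not binding sites.

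Hoxb, Hoxc and Hoxd genes reached 1 FPKM most often in WT replicate 1 (5, 2 and 1 genes). Elsewhere Hoxd8 did so in WT replicate 3, Hoxd10 in labelled-deficient replicate 1, and Hoxb2 and Hoxb4 in labelled-deficient replicate 3. Hoxb4, a gene known for expanding blood stem cells when it is overexpressed, was above 0 in all 6 libraries. It was measured at 1.82, 0.567 and 0.157 FPKM in the WT libraries, against 0.173, 0.237 and 1.38 FPKM in those labelled deficient. Hoxb2 followed the same order at the top, with 2.54, 0.180 and 0 FPKM in the WT libraries, against 0, 0.247 and 1.204 FPKM in those labelled deficient. WT replicate 1 and labelled-deficient replicate 3 were the 2 high libraries for each, 1 from either group. Hoxb3 was measured at 1.43, 0.180 and 0.397 FPKM in the WT libraries, against 0.591, 0.110 and 0 FPKM in those labelled deficient. Hoxb1 was at 1.47 FPKM in WT replicate 1, at 0.329 FPKM in labelled-deficient replicate 1 and listed at 0 elsewhere. Hoxb7 was at 1.47 and 0.363 FPKM in WT replicates 1 and 2 and listed at 0 in the other 4 libraries. Hoxb5, Hoxb6, Hoxb8 and Hoxb9 stayed below 1 FPKM, and Hoxb6 was the highest of them, at 0.930 FPKM in WT replicate 1 and, at 0.926 FPKM, labelled-deficient replicate 2.

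Hoxc9, a gene of the thoracic body level, had the highest value of any Hox gene, 21.3 FPKM, and was above 0 only in WT replicate 1. That value had a deposited interval of 12.4 to 30.2 FPKM and rested on 22.8 implied fragments of a locus assembled from the reads of that library. In WT replicate 1, Hoxa9 had 23.1 implied fragments at 1.45 FPKM, so the rank of Hoxc9 in FPKM did not hold in fragments. Hoxc12 was likewise above 0 only there, at 1.93 FPKM and 7.0 implied fragments. The other Hoxc genes were at most 0.422 FPKM (Hoxc5 in labelled-deficient replicate 3). Of the Hoxd genes other than Hoxd8, Hoxd10 was measured at 1.57 and 0.389 FPKM in WT replicates 1 and 2 and at 1.499 FPKM in labelled-deficient replicate 1, and was listed at 0 in the other 3 libraries. Hoxd3 was above 0 in 4 libraries, at most at 0.455 FPKM, and Hoxd4 in 3, at most at 0.526 FPKM. In labelled-deficient replicate 3 every Hoxd gene was listed at 0.

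Summed over each cluster, Hoxa genes held 11.2, 22.3 and 26.99 FPKM in WT replicates 1 to 3 and 3.87, 13.5 and 10.004 FPKM in labelled-deficient replicates 1 to 3. The Hoxa sums overlapped between groups (20.1 ± 8.12 and 9.11 ± 4.86 FPKM, SD, n = 3 each). Hoxa genes were 87.6% and 88.8% of Hox FPKM in WT replicates 2 and 3, and 84.4% and 76.9% in labelled-deficient replicates 2 and 3. They were 23.4% and 45.9% in replicate 1 of the WT and labelled-deficient groups, the 2 shallowest libraries. Hoxb genes summed to 9.87, 1.67 and 0.554 FPKM in the WT libraries, against 1.70, 1.61 and 2.59 FPKM in those labelled deficient. Hoxc genes summed to 23.6 FPKM in WT replicate 1 and to at most 0.573 FPKM in any other library. Hoxd genes summed to 3.20, 1.09 and 2.81 FPKM in the WT libraries, against 2.30, 0.629 and 0 FPKM in those labelled deficient. Without WT replicate 1, the log2 difference of the summed FPKM turned from -0.28 to 0.53 for Hoxb and from -1.22 to 0.22 for Hoxc, on the log2(FPKM + 1) scale.

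By position, paralogues 5 to 8 held the largest share of Hox FPKM in 4 of the libraries, at 43.6% and 77.5% in WT replicates 2 and 3 and 63.2% and 54.6% in labelled-deficient replicates 2 and 3. The share in WT replicate 3 rested on Hoxa7 at an assembled locus, which gave 21.0 of their 23.6 FPKM. That value came from 115 implied fragments, where Hoxa9 had 90.5 at 4.20 FPKM. The Hoxa7 value of WT replicate 2 also holds Mira. In replicate 1 of each group, paralogues 9 to 13 held the largest share, at 55.6% in WT and 41.0% in the labelled-deficient library. In WT replicate 1 that share rested on Hoxc9, which gave 21.3 of their 26.6 FPKM. There paralogues 1 to 4 held 11.7 FPKM and paralogues 5 to 8 held 9.50 FPKM. Paralogues 1 to 4 held 8.66% to 37.1% and were highest in WT replicate 1 in FPKM (11.7 FPKM, beside 2.63 to 5.25 FPKM in the others).

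**Figure D4:**
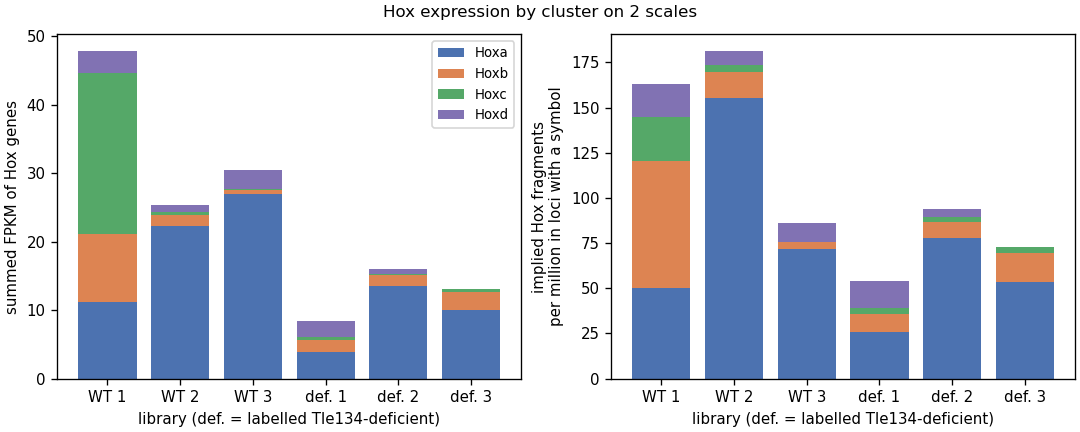
Stacked bars of Hox expression per library by cluster, as summed FPKM (left) and as implied Hox fragments per 1000000 in loci with a symbol (right); def. stands for labelled Tle134-deficient. In FPKM the 3 WT bars (25.4 to 47.8) lie above the others (8.45 to 16.0), while in fragments the WT bars (86.1 to 181) and the others (53.8 to 94.1) overlap.

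Over all 39 genes, Hox FPKM summed to 47.8, 25.4 and 30.4 in WT and to 8.45, 16.0 and 13.02 in the labelled-deficient libraries. On this scale the groups did not overlap. The sums also did not overlap after scaling to a common upper quartile (24.8 to 58.2 in WT and 8.00 to 16.8 in the others). They overlapped in implied fragments per 1000000 (163, 181 and 86.1 in WT and 53.8, 94.1 and 73.0 in the labelled-deficient libraries). They also overlapped after each library was rescaled to an equal sum over all genes (44.6, 94.8 and 11.8 in WT and 5.36, 28.6 and 16.8 in the labelled-deficient libraries). With Hoxc9 left out, the groups stayed apart (26.5, 25.4 and 30.4 FPKM in WT, against 8.45, 16.0 and 13.02 FPKM). With Hoxa7 left out, the sums were 47.6, 19.4 and 9.43 FPKM in the WT libraries, against 7.74, 11.9 and 7.40 FPKM in those labelled deficient, which overlapped. The separation of the sums thus depended on the scale and on Hoxa7.

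In the fit over all genes, 0 of the 3 Hox genes tested passed an adjusted p of 0.05 (limma, Benjamini-Hochberg over 11063 genes), where 0.75% of all genes did. The other 36 did not reach 1 FPKM in 3 libraries. With no filter, 0 of the 34 Hox genes above 0 had an unadjusted p under 0.05, beside 6.23% of all genes, and 0 genes of any kind passed after adjustment. Of those 34, 26 had a lower mean log2 level in the labelled-deficient libraries and 8 a higher one (Hoxa5, Hoxa11, Hoxb5, Hoxb8, Hoxc5, Hoxc6, Hoxc13 and Hoxd4), where 54.8% of all genes were lower. Without WT replicate 1, 16 of 31 were lower (51.6%), beside 52.7% of all genes. The excess of lower Hox genes thus rested on that library.

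Of the 17 Hox genes at 1 FPKM somewhere, 10 reached it only in WT libraries and 0 only in labelled-deficient ones, beside 14.7% and 7.56% of 14728 genes. Of the 10, WT replicate 1 alone supplied 6: Hoxa2, Hoxb1, Hoxb3, Hoxb7, Hoxc9 and Hoxc12. That library also held 43.7% of the 2555 genes of any kind at 1 FPKM in exactly 1 library, where each of the others held 8.38% to 13.9%. Without it, 4 Hox genes of 11 were at 1 FPKM only in WT and 3 only in the labelled-deficient libraries. Both shares stood above those of all genes (7.71% and 11.2%). The shares of all genes were not matched for level, and each of the 10 Hox genes reached 1 FPKM in exactly 1 library. Whether low level alone gives such shares was not tested.

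Markers of other cell types were set beside the Hox values. Stromal cells of many tissues are known to express Hox genes of several clusters. Of 9 stromal markers, 8 were tested, all 8 had differences below 0 and 1, Pdgfrb, was called lower (limma adjusted p = 0.0469; median log2 difference of the list -2.11, beside 0.04 over all genes tested). Their summed FPKM was 311, 85.5 and 408 in WT and 81.4, 56.0 and 18.8 in the labelled-deficient libraries. The groups did not overlap in this sum. The sum was highest in WT replicate 3. The mean log2(FPKM + 1) of the 9 markers was highest in WT replicate 1 (4.38, beside 4.19 in WT replicate 3). Twist1 was at 0 in WT replicate 3 and labelled-deficient replicates 1 and 3, and no other stromal marker was at 0 anywhere. Of 14 early progenitor markers, 12 were tested and 0 called (median log2 difference -0.25). Groups of 4 of the 12 did not overlap, among them Lmo2 (higher) and Cd34 (lower), beside 15.2% of all tested genes. The progenitor markers summed to 145, 307 and 334 FPKM in the WT libraries, against 220, 207 and 361 FPKM in those labelled deficient, and Mecom was at 0 in 4 libraries. Lmo2 had the smallest adjusted p of them, at 6.84, 16.3 and 20.9 FPKM in the WT libraries, against 42.6, 39.7 and 79.3 FPKM in those labelled deficient (limma adjusted p = 0.166). Cd34 was at 35.8, 95.3 and 84.9 FPKM in the WT libraries, against 19.4, 9.39 and 33.9 FPKM in those labelled deficient, with no overlap (limma adjusted p = 0.248); Cd34 was chosen for mention after its values were seen. Of 7 mast cell and basophil markers, all tested, 6 had differences below 0 and 0 were called, and they summed to 97.9, 44.0 and 276 FPKM in the WT libraries, against 1.60, 2.88 and 69.0 FPKM in those labelled deficient. Of 10 T lineage markers, all tested, 10 had differences below 0 and 0 were called (median log2 difference -0.96), and they summed to 906, 429 and 1170 FPKM in the WT libraries, against 722, 314 and 209.9 FPKM in those labelled deficient. The part of stromal, mast, progenitor or T cells in the Hox values was not tested.

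The TALE cofactors, which bind DNA together with Hox proteins, were expressed at higher levels than most Hox genes. Meis1, the best known partner of Hoxa9 in blood progenitors, was measured at 2.02, 7.34 and 6.21 FPKM in the WT libraries, against 1.23, 2.98 and 5.23 FPKM in those labelled deficient. As for Hoxa9 in FPKM, WT replicates 2 and 3 were the highest and the groups overlapped (log2 difference -0.57 ± 0.60, SE, limma adjusted p = 0.857). Pbx2 was the 1 cofactor whose groups did not overlap, at 7.31, 8.25 and 8.43 FPKM in the WT libraries, against 3.62, 4.91 and 4.90 FPKM in those labelled deficient. Its log2 difference was -0.72 ± 0.41 (SE, limma adjusted p = 0.644), and groups of 15.2% of all tested genes did not overlap. Of the 9 cofactors, 7 were tested and 0 called, with 6 differences below 0 and 1 above it and a median of -0.42, beside 0.04 over all genes tested.

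Pbx3 was measured at 1.89, 0.176 and 2.05 FPKM in the WT libraries, against 2.42, 5.64 and 0.840 FPKM in those labelled deficient. Pbx3 was the cofactor with a difference above 0 (0.67, limma adjusted p = 0.831). Pbx4 was measured at 15.5, 10.2 and 7.10 FPKM in the WT libraries, against 6.73, 2.25 and 15.6 FPKM in those labelled deficient. Meis3 was highest in replicate 1 of each group, at 10.9 and 11.7 FPKM, and at 2.12 to 4.32 FPKM in the others. Pknox1, also called Prep1, was measured at 20.2, 4.56 and 10.03 FPKM in the WT libraries, against 7.17, 7.92 and 6.43 FPKM in those labelled deficient. Meis2 was below 1 FPKM in all 6. Pknox2 stood at 47.9 FPKM in WT replicate 1 and at most at 1.72 FPKM elsewhere, so that its high value, like that of Hoxc9, belongs to that library alone. Leaving out 1 library turned the sign of the differences of Meis3 and Pknox1.

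**Figure D5:**
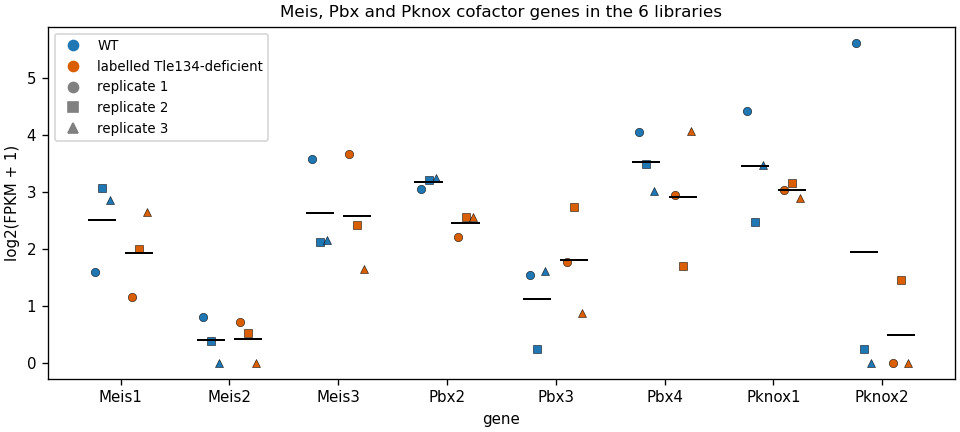
Log2(FPKM + 1) of 8 TALE cofactor genes in each library; colours give the group, shapes the replicate number and black lines the group mean. Pbx2 is the gene with separate groups, and Pknox2 has 1 high point, WT replicate 1 at 47.9 FPKM.

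Regulators of the Hox clusters were expressed in both groups, and 0 of their genes were called. Of the MLL and menin group, which maintains Hox expression, 19 genes were tested with a median log2 difference of 0.08 (12 above 0 and 7 below). The smallest adjusted p was that of Ash1l, a histone methyltransferase, at 10.3, 15.8 and 11.4 FPKM in the WT libraries, against 16.3, 20.2 and 21.1 FPKM in those labelled deficient (log2 difference 0.59, limma adjusted p = 0.700). Of the PRC2 genes, which deposit the repressive mark on histone H3, 10 were tested with a median of 0.01. Phf1, an accessory subunit that binds chromatin, had the smallest adjusted p there. It was measured at 2.53, 6.26 and 3.61 FPKM in the WT libraries, against 15.6, 13.7 and 10.3 FPKM in those labelled deficient, which did not overlap (log2 difference 1.52 ± 0.45, SE, limma adjusted p = 0.217). Phf1 was the 1 PRC2 gene of 10 tested without overlap, beside 15.2% of all tested genes.

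Of the PRC1 genes, which compact chromatin that carries that mark, 17 were tested with a median of -0.06. Cbx2, a chromobox subunit that reads the mark, was measured at 3.92, 5.65 and 4.54 FPKM in the WT libraries, against 1.38, 0.632 and 1.42 FPKM in those labelled deficient, with no overlap (log2 difference -1.42 ± 0.47, SE, limma adjusted p = 0.283). Of the 2 tested demethylases of that mark, Kdm6b had the smaller adjusted p, 0.901. Of 14 Cdx and retinoid genes, which act upstream of Hox genes in the embryo, 7 were tested with a median of 0.31. Cdx2 and Cdx4 were at 0 in all 6 libraries. Rara, which encodes a retinoic acid receptor, was measured at 9.18, 9.29 and 10.4 FPKM in the WT libraries, against 19.2, 19.7 and 15.3 FPKM in those labelled deficient, with no overlap (log2 difference 0.84, limma adjusted p = 0.479). Cbx2 and Rara were each the 1 tested gene without overlap in their lists of 17 and 7, beside 15.2% of all tested genes.

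Noncoding genes of the Hox clusters, apart from Mira, were at most 2.64 FPKM in any library. Of 24 listed, 18 were found by symbol and 0 reached the filter. Hotair, a transcript of the Hoxc cluster, was at most 0.639 FPKM, and Hottip, at the end of Hoxa, at most 0.243 FPKM. Hoxaas3 stood at 2.31 FPKM in labelled-deficient replicate 2 and was listed at 0 elsewhere, and Hoxa11os stood at 2.64 FPKM in labelled-deficient replicate 1 and 0.632 FPKM in WT replicate 1. Gm53 stood at 2.60 FPKM in WT replicate 1 and was listed at 0 in the other libraries. The microRNA genes Mir10a, Mir10b, Mir196a-1, Mir196a-2, Mir196b and Mir615 were at 0 in all 6 libraries. RNA-seq libraries of this kind do not capture mature microRNAs well, so these zeros say little about them.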

How the data were processed

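RNA was extracted from sorted DN1 thymocytes on RNeasy columns and sequenced with a standard Illumina protocol, per the labels' protocols. Trimmomatic 0.38, TopHat2 2.1.1, featureCounts 2.0.1 and build mm9 are named in the submitters' processing notes, with no role or order; the sources used here name no annotation. The deposited tables hold FPKM per locus with 2 bounds, per the file headers. Counts were not analysed here, so read depth is unknown; implied fragments are (FPKM/SD) squared, with SD taken as the upper bound minus FPKM, divided by 2.

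FPKM values were joined by symbol with Python 3.11.15 and pandas 2.3.3. Symbols that shared a locus in any library were joined and their FPKM added (24318 symbols, 23401 units). Values of a Hox gene in a library are those of its own row; the test used the joined Hoxa7/Mira unit. Log2(FPKM + 1) values of genes at 1 FPKM or more in at least 3 libraries entered limma 3.58.1 under R 4.3.3 (group only, trend and robust steps, Benjamini-Hochberg over 11063 genes, threshold 0.05), after the script was tested on simulated data. A fold on this scale understates the change of low genes. Named genes were all Hox and TALE genes (values of 3 listed genes are not reported here, though counts, sums and medians hold them), and from other lists up to 3 called members or, with none, the smallest adjusted p. The members and lists were chosen with earlier results of these data known.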

Additional observations from a re-analysis of the deposited data

How the results depend on the processing

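No Hox gene, TALE cofactor or gene of the other Hox-related lists passed the threshold under any of the 16 alternatives to the fit, which changed the pseudocount, the filter, the scaling, the limma steps, the joining of symbols, the replicate block or the libraries. The count over all genes was 83 and became 53 with a pseudocount of 0.1, 0 with no filter (1181 genes at an unadjusted p under 0.05), 4 after rescaling to equal sums, 55 without the trend and robust steps, and 0 to 58 when 1 library was left out. With the replicate number as a block it was 2. Nothing in the labels says that a number marks a shared source, and deviations of same-numbered libraries correlated at 0.08, 0.18 and 0.17; each library correlated best with its own number.

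Counts of Hox genes per library depended on the level asked for (WT replicates 1 to 3, then labelled-deficient 1 to 3): 22, 19, 9, 14, 17 and 9 at 0.1 FPKM; 15, 9, 5, 7, 8 and 5 at 0.5 FPKM; 2, 2, 1, 0, 0 and 1 at 5 FPKM; 14, 16, 8, 5, 15 and 9 with a lower bound above 0; and 11, 13, 2, 1, 7 and 5 after rescaling to equal sums. In alternatives chosen after seeing the data, Hox genes at 1 FPKM only in WT numbered 4 to 13 with 1 library left out (10 with all) and only in the labelled-deficient libraries 0 to 3 (0 with all). Hox genes with a lower mean in the labelled-deficient libraries numbered 16 to 26 with 1 library left out (26 with all). They numbered 28 after rescaling to equal sums and 27 after upper quartile scaling. Hox genes whose groups did not overlap numbered 1 after rescaling to equal sums.

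Differences far from the threshold changed sign without 1 library: Hoxa7/Mira to 0.30 (WT replicate 3; range -0.95 to 0.30), Meis3 to 0.43 (WT 1), 0.03 (labelled-deficient 2) and 0.42 (labelled-deficient 3; range -0.59 to 0.43), Pknox1 to 0.058 (WT 1; range -0.91 to 0.058) and Kdm6b to 0.000345 (WT 2; range -0.73 to 0.000345). The cause was not tested. Depth limits the values: 65 of the 100 Hox values above 0 rest on under 10 implied fragments.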

Other observations

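Each table also holds loci without a gene symbol, and some lay inside the Hox clusters, from the first to the last Hox gene on mm9. The Hoxa cluster (105.509 kb) held 0, 9 and 1 such loci in WT replicates 1 to 3 and 2, 8 and 1 in labelled-deficient replicates 1 to 3. The 9 in WT replicate 2 held 99.5 implied fragments and the 8 in labelled-deficient replicate 2 held 142. The Hoxb cluster held 5, 3 and 1 in WT and 1, 2 and 2 in the labelled-deficient libraries. The Hoxc cluster held 2, both in WT replicate 2, and the Hoxd cluster held 1 in WT replicate 2 plus 2 in the labelled-deficient replicate numbered 1. The 2 libraries with most such loci in Hoxa also had the most in the whole genome (138037 and 160838, beside 49861 to 98740 in the others).

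Genes next to the clusters were described by 8 tested genes, of which 0 were called (median log2 difference 0.05). Groups of 2 of the 8 did not overlap, beside 15.2% of all tested genes. Skap2, an adaptor gene beside the Hoxa cluster, was measured at 7.82, 10.8 and 9.97 FPKM in the WT libraries, against 11.6, 30.5 and 26.1 FPKM in those labelled deficient, with no overlap (log2 difference 1.08 ± 0.45, SE, limma adjusted p = 0.448). Evx1, a homeobox gene beyond Hoxa13 that is not a Hox gene by name, was at 0.972, 0.262 and 0.879 FPKM in WT and was listed at 0 in the 3 labelled-deficient libraries; it was chosen for mention after its values were seen.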
